A study of Arabidopsis thaliana with 16 samples.

Results

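The stele, the central cylinder of the root, was represented by 3 of the 16 arrays of a study of iron-deficient Arabidopsis thaliana roots. The 3 arrays were chosen by their titles, which name the stele and iron deficiency, and were compared with the unweighted mean of the other 4 cell populations. Roots of ecotype Columbia, 6 days after germination, spent 24 h on medium in which 0.3 mM ferrozine, an iron chelator, took the place of the iron salt. The roots were then digested to protoplasts, cells carrying a GFP reporter were sorted by fluorescence, and their RNA was amplified in 2 cycles and hybridized to Affymetrix arrays. The reporter lines were WOL::GFP for the stele (n = 3), WER::GFP for the epidermis with lateral root cap (n = 4), PET111 for the columella (n = 3), CORTEX for the cortex (n = 3) and SCR::GFP for the endodermis with quiescent center (n = 3).

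All 5 populations had been through the same iron-deficient medium, so the values are levels in sorted protoplasts of deficient roots and not responses to the deficiency. Each population is defined by where 1 reporter is active. Nothing in the labels ties the replicates to separate cultures, and the p-values therefore cover the spread between these samples, which may be technical. In a sorted population, a signal that came from fewer cells of a type cannot be told apart from a signal that came from less RNA per cell.

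The stele holds the xylem, which carries water and minerals such as iron to the shoot, the phloem, which brings sugars and signals to the root, the procambium between them and the surrounding pericycle, from which lateral roots arise. Vascular identity is set by transcription factors, among them the HD-ZIP III family and LHW, together with auxin and cytokinin signalling. Iron acquired in the outer layers has to reach the xylem, and peptides of the IMA family, made in vascular tissue of iron-deficient plants, promote the uptake genes.

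The 3 stele arrays had the same deposited scaling as the others, with trimmed means of 250.0 in all 16 arrays. The log2 ratio of 3' over 5' signals of control probe sets was read as a measure of the amplified RNA. RNA quality and the 2 cycles of amplification cannot be told apart in it. The ratio was 3.19 to 3.40 in the stele, 3.28 to 4.18 in the endodermis and 3.19 to 3.52 in the columella. In the epidermis it was 2.92 to 3.09 and in the cortex 2.85 to 2.98. Its part in the differences between populations was not tested. On the log2 scale over tested probe sets, the stele arrays correlated with each other at 0.945 to 0.971. Their correlations with the endodermis arrays were 0.840 to 0.878, with the cortex arrays 0.817 to 0.854, with the epidermis arrays 0.727 to 0.828 and with the columella arrays 0.693 to 0.802. Stele replicate 2 stood somewhat apart, at 0.945 to 0.948 with the other stele arrays against 0.971 between replicates 1 and 3. It was also the lowest stele array in 47.3% of the stele-enriched probe sets described below. Epidermis replicate 4 stood further apart, at 0.894 to 0.938 with the other epidermis arrays against up to 0.981 between those. Cortex replicate 1 stood apart about as much as stele replicate 2, at 0.940 to 0.950 against 0.974 between the other cortex arrays.

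The label was set beside 4 genes named as stele markers. They had been chosen with earlier results of these data known, so their levels describe the stele arrays and are no independent check of the label. All 4 were higher in the stele than the mean of the other populations. TBL36, a member of a family of cell wall acetyltransferases, had MAS5 signals of 1208, 1711 and 1880 on the stele arrays and from 24.6 to 334.9 on the other 13, a 12.2-fold difference (log2 3.61 ± 0.38 SE, adjusted p = 2.2e-06). IAA29, an Aux/IAA repressor of auxin response, had 281.3, 419.1 and 214.2 in the stele against at most 118.0 elsewhere, a 6.52-fold difference (adjusted p = 2.1e-06). For both genes the stele arrays and the others did not overlap. LHW, the bHLH factor needed for vascular cell number, had 513.5, 509.4 and 535.1 in the stele, and its mean of 519.4 ± 13.8 (SD, n = 3) lay beside 462.1 ± 90.0 in the endodermis. LHW was 1.99-fold above the mean of the other 4 (adjusted p = 0.0028), but its difference to the endodermis did not pass the test (adjusted p = 0.67). The fourth marker, AT1G47400 (IMA1), is given with the iron genes. The summed signal of the 4 markers, mostly that of TBL36, was 2204.9 to 2908.7 in the stele, and 774.5 to 848.4 in the endodermis, the next population. The gene of the reporter itself, WOL, was not analysed here.

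Of 16221 tested probe sets, 2573 (15.9%) were higher in the stele than the mean of the other 4 populations and 1821 (11.2%) were lower, by limma with Benjamini-Hochberg adjustment at 0.05. A stricter set was formed from the pairwise tests. A probe set was called stele-enriched when it was higher in the stele than in each of the other 4 populations, and stele-depleted when it was lower than in each. There were 338 stele-enriched probe sets (2.08%) and 140 stele-depleted ones (0.863%). In 323 of the 338 every stele array lay above all other 13 arrays, and in 116 of the 140 every stele array lay below them. The background for those 2 patterns, over all tested probe sets, was 3.69% above and 1.31% below. Both sets were selected on these same arrays, so this separation largely follows from their definition and adds no support to it. Without stele replicate 3 the counts were 1669 higher, 1191 lower, 236 enriched and 78 depleted. Without stele replicate 2 and epidermis replicate 4 they were 2300, 1554, 326 and 152.

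The enriched set reached further from the other populations than the depleted set. Its median log2 difference was 2.01, a 4.02-fold higher level, with a range of 0.60 to 4.70. At least 4-fold differences were found for 169 of the 338 and at least 8-fold for 56. Against the highest of the other populations the median was 2.42-fold, and 66 probe sets stayed at least 4-fold above it. The depleted set had a median of -1.59, a 3.01-fold lower level, with a range of -4.19 to -0.47, and 33 of its 140 members were at least 4-fold lower. Against the lowest of the other populations its median was 1.91-fold lower. Over all tested probe sets the median difference was 0.05. For 23 enriched probe sets (6.8%) all of the other 13 arrays lay under the filter signal of 38.05, so these were tested because of the stele arrays alone. For 19 depleted probe sets (13.6%) all 3 stele arrays lay under that signal, and differences of low signals are understated on the scale used.

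**Figure D1:**
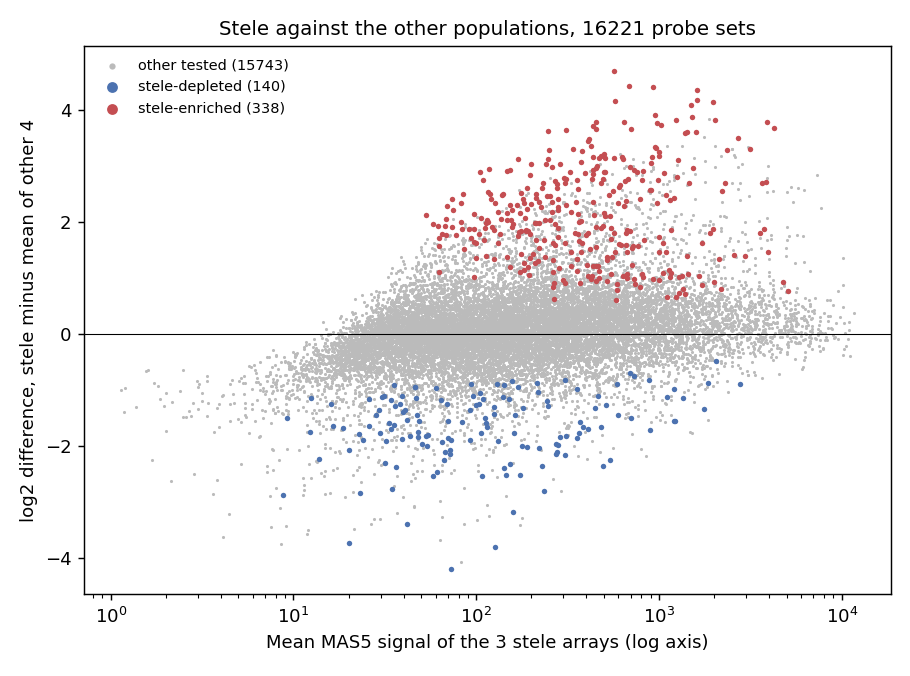
Each point is 1 of 16221 tested probe sets, with the mean MAS5 signal of the 3 stele arrays on a logarithmic horizontal axis and the log2 difference between the stele and the mean of the other 4 populations on the vertical axis. The 338 stele-enriched probe sets (red) lie between 0.60 and 4.70 and the 140 stele-depleted ones (blue) between -4.19 and -0.47.

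Much of both sets could not be named. The annotation of the array gave no gene for 151 of the 338 enriched probe sets (44.7%) and several genes for 4. Of the remaining 183, 155 carried a locus tag alone and 28 (8.28% of the set) a gene symbol. Among the depleted probe sets, 59 (42.1%) had no gene, 64 a locus tag alone and 14 (10%) a symbol. These shares were near those of all tested probe sets, with 42.5% without a gene and 7.59% with a symbol. The largest differences in both directions belonged to probe sets without a gene. The highest had stele signals of 651.8, 370.5 and 687.7 against 1.43 to 47.5 elsewhere, a 26.0-fold difference, and the lowest had 55.4, 90.5 and 71.4 against a lowest value elsewhere of 157.0 and a median of 2451, an 18.3-fold lower level.

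The population nearest to the stele was most often the endodermis. Among the 338 enriched probe sets, the highest of the other 4 populations was the endodermis for 160 (47.3%), the columella for 79 (23.4%), the epidermis for 58 (17.2%) and the cortex for 41 (12.1%). Over all tested probe sets the endodermis was the highest of these 4 in 27.2%. The lowest of the 4 was the epidermis in 166 enriched probe sets (49.1%), against 24.4% overall. Depleted probe sets mirrored this. Their lowest other population was the endodermis in 56 of 140 (40%), against 21.4% of all tested, and their highest was the columella in 68 (48.6%), against 26.8%. These shares are descriptions without a test.

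**Figure D2:**
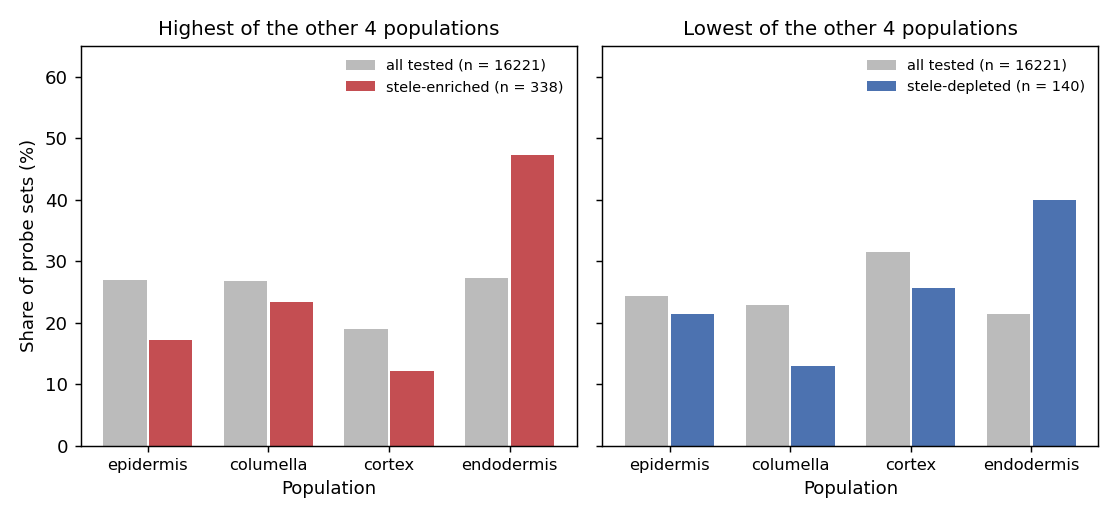
Bars give the share of probe sets, in percent, for which each population was the highest of the other 4 (left) or the lowest of the other 4 (right), for all 16221 tested probe sets (grey), the 338 stele-enriched (red) and the 140 stele-depleted (blue). The endodermis takes 47.3% of the enriched set on the left and 40% of the depleted set on the right, against 27.2% and 21.4% of all tested probe sets.

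Among enriched probe sets that name 1 gene and whose arrays did not overlap, the 15 largest differences ran from 11.1-fold to 21.2-fold. Of these 15 genes, 11 are known here by locus tag alone. AT1G73780 gave 1163, 895.1 and 719.1 in the stele and from 3.02 to 114.3 on the other 13 arrays, a difference of 4.41 ± 0.42 on the log2 scale (21.2-fold, adjusted p = 9e-07). AT1G79620 gave 1784, 1067 and 1979, with a highest value elsewhere of 233.6 in the columella (20.6-fold, adjusted p = 3.4e-07). AT3G42800 stood apart from every population by the widest margin in the enriched set. Its stele signals of 609.4, 577.0 and 543.5 lay above a highest value elsewhere of 52.7, and it was 14.6-fold above the next population, the cortex.

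The other locus-tag genes among the 15 were AT3G10080, AT2G28410, AT1G77020, AT4G23680, AT4G20430, AT5G02640, AT5G25840 and AT5G24240. AT4G20430 had the smallest adjusted p of the 15 (5.2e-08), with 492.3, 374.7 and 493.8 in the stele and at most 59.1 elsewhere. AT1G77020 had the smallest difference of the 15 to its next population, with stele signals of 922.0 to 1159 against endodermis signals of 260.5 ± 43.0 (SD, n = 3) and a difference to the endodermis of 1.94 on the log2 scale (adjusted p = 0.013). AT5G24240 and AT5G25840 had the cortex as their next population, and AT1G79620, AT5G02640, SBTI1.1 and TBL36 had the columella.

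**Figure D3:**
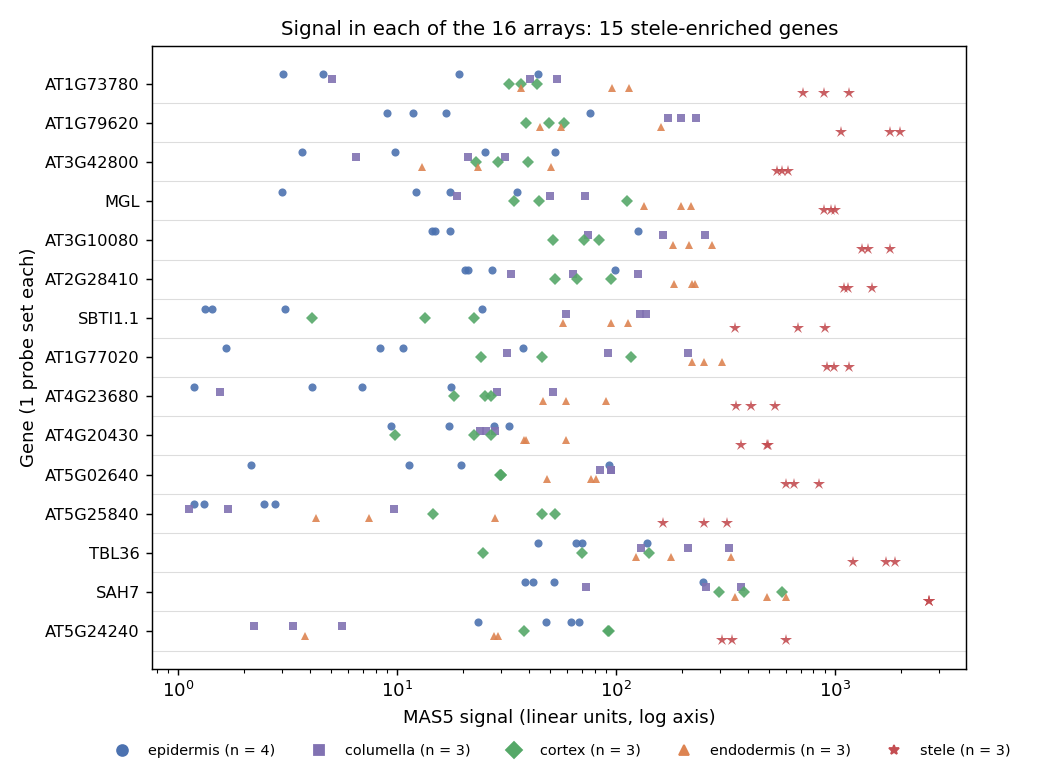
The MAS5 signal (linear units, logarithmic axis) of the 15 stele-enriched genes with the largest differences, among those chosen so that the stele arrays do not overlap the others, is shown on each of the 16 arrays, 1 marker per array and 1 colour per population. The 3 stele arrays (red stars) lie to the right of all other 13 in each gene, as for AT3G42800 with 543.5 to 609.4 in the stele and at most 52.7 elsewhere.

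The 28 enriched genes with a symbol can be read by role. In 27 of them every stele array lay above all others. The exception was TCP15, a TCP transcription factor, with stele signals of 294.5, 49.8 and 228.4, of which replicate 2 lay under the highest value elsewhere of 69.5. The endodermis was the next population for 16 of the 28.

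Several of the 28 encode proteins of the cell wall or of secretion. Beside TBL36, TBL34, which is known to acetylate xylan, gave 311.7, 600.1 and 914.1 in the stele and up to 311.4 elsewhere, so that stele replicate 1 lay just above the other arrays (6.36-fold over the mean of the other 4, adjusted p = 1.4e-05). TBL23 was 2.22-fold higher. The expansins, which loosen walls, were represented by EXLB1 (519.0, 765.4 and 522.7 in the stele, 269.2 at most elsewhere, 6.2-fold) and EXPA15 (1059, 895.6 and 979.4, 745.7 at most elsewhere, 5.05-fold). CSLC5, of the family that makes the xyloglucan backbone, was 2.06-fold higher. SAH7, for which no role is given here, was close to constant over the stele arrays at 2682, 2700 and 2704, and reached 601.2 elsewhere (11.3-fold, adjusted p = 1.1e-05). The subtilase SBTI1.1 was 13.8-fold higher, with 682.6, 349.1 and 902.9 in the stele. The serine carboxypeptidase-like gene scpl35 was 8.90-fold higher, with 648.6, 344.3 and 706.3.

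Regulators of auxin and vascular patterning were also in the set. IAA31, an Aux/IAA gene, gave 108.5, 144.6 and 93.7 in the stele and at most 35.3 elsewhere, under the filter signal, so it was tested because of the stele arrays alone (5.84-fold on the scale with the pseudocount). PHV, an HD-ZIP III factor of vascular patterning, gave 380.0, 238.2 and 438.1 against at most 211.1, with the columella next (5.14-fold, adjusted p = 5e-07). PID2, a kinase related to PINOID, which directs auxin transporters, had signals of 41.3 to 65.6 in the stele and at most 14.6 elsewhere, and was likewise tested because of the stele arrays alone. RALFL24, of a family of secreted peptides, was 2.32-fold higher. The small GTPase SGP2 was 2.59-fold higher and LUL4, a ubiquitin ligase, 2.16-fold.

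Genes of the cytoskeleton included ACT11, an actin, with 2148, 1839 and 2663 in the stele and at most 850.9 elsewhere (5.88-fold, adjusted p = 2.1e-06). TON1B, which organises cortical microtubules, was 2.10-fold higher, and BLT, a gene of trichome branching, 6.09-fold. Genes of the IQD family encode calmodulin-binding proteins found at microtubules. Of these, iqd33 gave 481.2, 305.4 and 337.4 in the stele against 85.3 at most (8.43-fold), and IQD24 gave 56.2 to 83.3 against 36.2 at most, and was again tested because of the stele arrays alone.

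Of the enzymes, 3 act on sulfur amino acids. MGL, methionine gamma-lyase, gave 1002, 957.9 and 894.0 in the stele and at most 219.6, in the endodermis (15.1-fold, adjusted p = 4.9e-07). HMT-1, which methylates homocysteine to methionine, gave 2867, 3802 and 3996 against at most 2673 (3.51-fold, adjusted p = 3.9e-05). CBL, cystathionine beta-lyase, which makes homocysteine, gave 1307, 1292 and 1411 against at most 915.2 (2.05-fold, adjusted p = 0.00097). The 3 were grouped after their values were seen, from a set defined by the pairwise tests, and their group was not tested. NDB3, an alternative NADH dehydrogenase of mitochondria, gave 373.8, 361.3 and 348.4 against at most 76.2 (6.06-fold). The cytochrome P450 CYP71B37 was 3.69-fold higher and OLEO3, an oleosin of oil bodies, 2.55-fold.

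The counts by family stand beside a background of 15.9% higher and 11.2% lower over all tested probe sets, and nothing particular to a family is read from them. Of 21 tested probe sets of the trichome birefringence-like family, 8 were higher in the stele, 4 were lower and 9 were not called, with a median of 0.50. The higher ones included both probe sets of AT2G31110, listed as TBL40, at 3.12 and 2.22, while TBL39 (-1.16) and TBL32 (-1.07) were lower. Of 14 expansin probe sets 4 were higher and 2 lower, the latter EXPA9 (-1.98) and EXPA4 (-1.87). Both were highest in the columella. The stele level of EXPA9 was 1.53-fold above the endodermis, and that of EXPA4 was 1.20-fold below the cortex. Among 7 xyloglucan endotransglucosylases, which cut and rejoin xyloglucan, 4 were higher and none lower, led by XTH21 (2.81, 7.03-fold, adjusted p = 0.00018) and XTH20 (1.85). None of the 7 was stele-enriched, and XTH21 was only 1.06-fold over the endodermis.

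A further 32 families, which share the letters of a symbol and have at least 6 tested members, were formed after the values were seen, and those named here were picked from them. The background is the same 15.9% higher and 11.2% lower. The tetraspanins (TET), membrane proteins of which several are known from vascular cells, had 6 of 9 members higher and 1 lower, with a median of 1.00. TET6 was at 2.21 (4.64-fold, adjusted p = 4.2e-05), TET5 at 1.72 and TET12 at 1.42, while TET3 was lower (-1.61, adjusted p = 4.8e-06). TET3 was highest in the cortex, and its stele level was 1.13-fold above that of the endodermis. No tetraspanin met the stricter definition of enriched. The IQD family had 6 of 13 higher and 1 lower, IQD22, which was stele-depleted. Of 7 Aux/IAA genes, IAA29, IAA31 and IAA18 (2.17, 4.49-fold) were higher and IAA33 was lower (-2.43, 5.38-fold). IAA33 was highest in the columella, 41.9-fold above the stele, and its stele level was 1.57-fold below that of the cortex. RALFL32 (2.42, 5.33-fold) led the 3 of 7 RALFL peptides that were higher, but its stele level was 1.29-fold below that of the endodermis. UGT glycosyltransferases had 4 of 35 higher and 9 lower, SCPL carboxypeptidases had 3 of 19 higher and 6 lower, and none of 10 GSTU glutathione transferases was called.

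**Figure D4:**
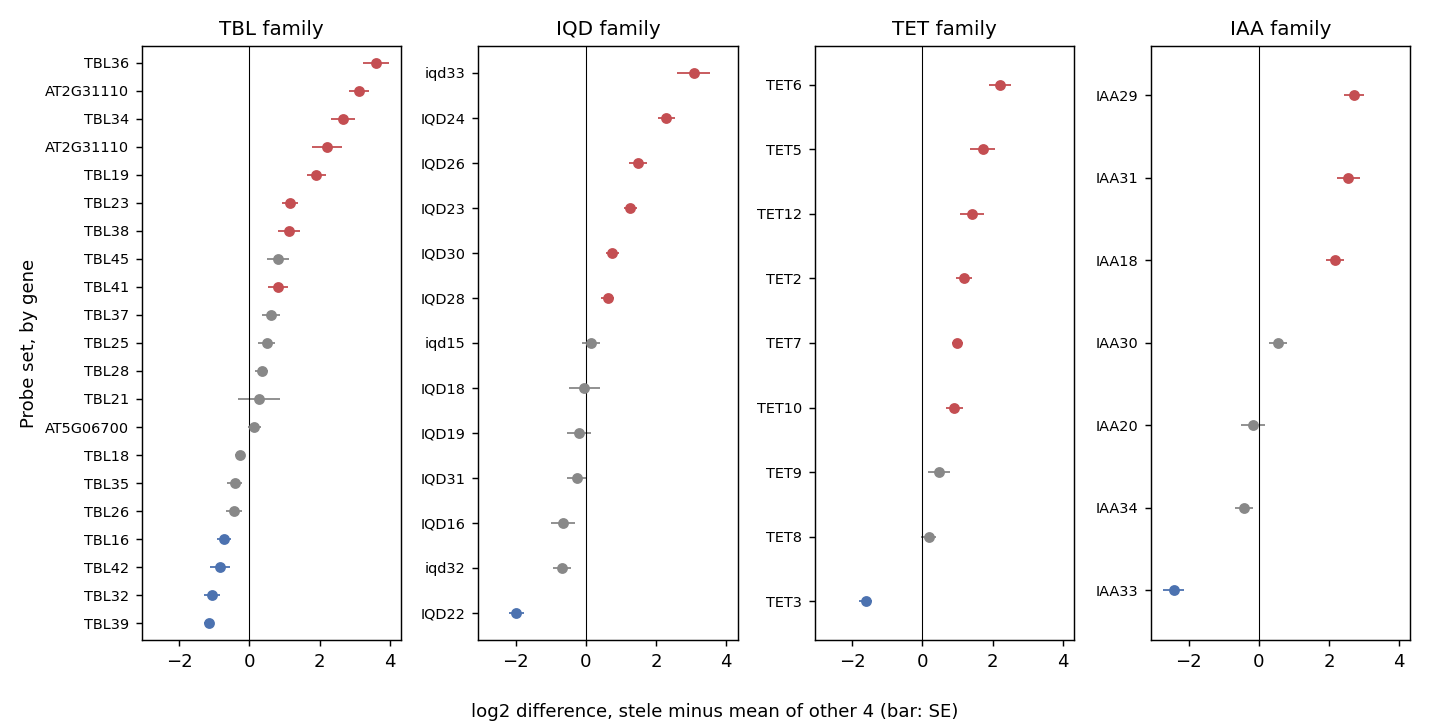
Each point is the log2 difference between the stele and the mean of the other 4 populations for 1 probe set of the TBL, IQD, TET and IAA families, with a bar of 1 SE; red marks higher, blue lower and grey not called. Each family has members on both sides, as TET6 at 2.21 and TET3 at -1.61.

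Stele-depleted genes were those that every other population held above the stele. The largest difference in a gene with a name or locus tag was that of AT5G62340. It had 118.1, 133.8 and 126.5 in the stele and from 198.8 to 6215 elsewhere (log2 difference -3.80, 13.9-fold lower, adjusted p = 5.2e-08). Its mean was 415 ± 244 in the endodermis (SD, n = 3), 1399 ± 566 in the cortex (n = 3) and 5944 ± 354 in the epidermis (n = 4), each above the stele by its pairwise test. AT1G23160 gave 28.5, 21.3 and 10.7 in the stele against 2901 ± 535 in the columella (n = 3) and 47.7 ± 12.0 in the cortex (n = 3), its lowest other population (13.2-fold below the mean of the 4). AT5G10130, with 129.7, 226.1 and 120.3 in the stele, had the same order of populations and was 8.97-fold lower. AT1G01490 differed from these in that the other 4 populations were alike, with means of 660.3 to 821.6 against stele signals of 177.9, 200.2 and 155.6 (4.00-fold, adjusted p = 3.2e-07).

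**Figure D5:**
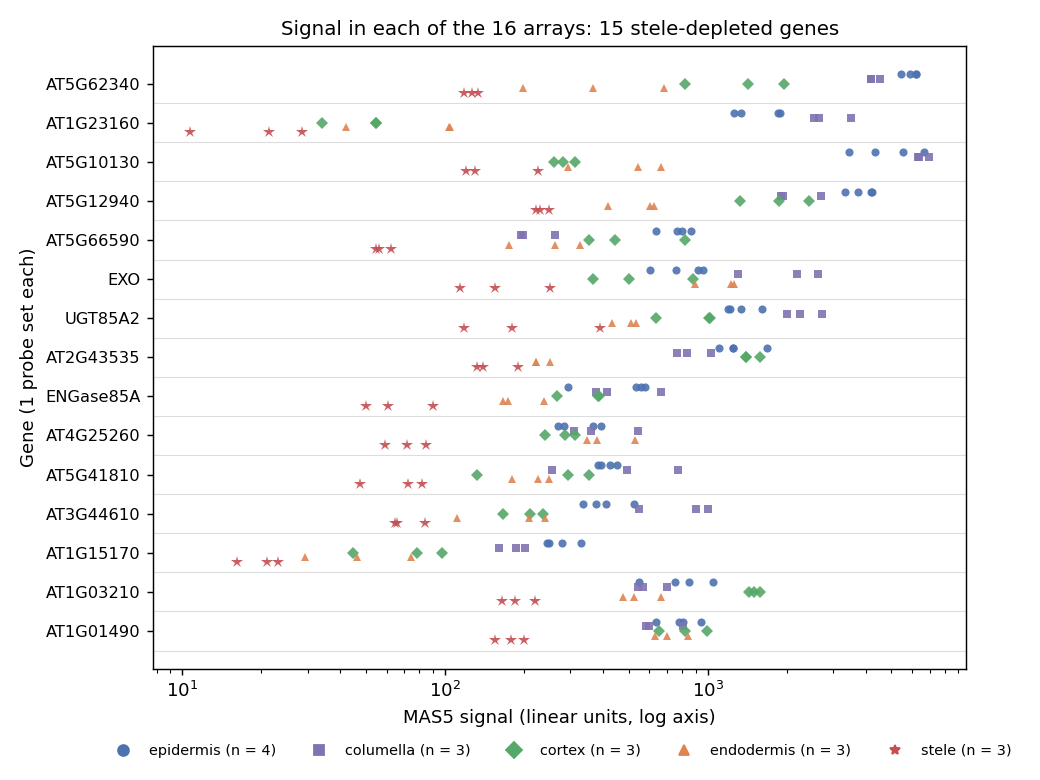
The MAS5 signal (linear units, logarithmic axis) of the 15 stele-depleted genes with the largest differences, among those chosen so that the stele arrays do not overlap the others, is shown on each of the 16 arrays, 1 marker per array and 1 colour per population. The 3 stele arrays (red stars) lie to the left of all other 13 in each gene, as for AT5G62340 with 118.1 to 133.8 in the stele and at least 198.8 elsewhere.

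Of the 14 depleted genes with a symbol, the columella was the highest population for 8. EXO, a gene of brassinosteroid-promoted cell expansion, gave 155.6, 114.0 and 250.7 in the stele against 366.7 to 2628 elsewhere (5.69-fold lower, adjusted p = 2.1e-06). The glucosyltransferases UGT85A2 and UGT72E2, the latter known to act on monolignols, were 5.07-fold and 4.75-fold lower. For UGT72E2 stele replicate 1 (948.6) lay above the lowest value elsewhere (720.9). CuAO1, a copper amine oxidase, gave 56.6, 87.2 and 38.2 in the stele and reached 1137 elsewhere (5.52-fold lower), with stele replicate 2 above the lowest value elsewhere of 78.4. ENGase85A, which cleaves N-glycans, was 4.75-fold lower.

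NET4B, of a family that binds actin, was even over the stele arrays at 296.4, 298.9 and 250.3 and lay at 424.9 or more elsewhere (3.93-fold lower, adjusted p = 1.4e-07). IQD22 was 3.96-fold lower, and its columella mean of 1217 ± 319 (SD, n = 3) was 19.3-fold above the stele. WRKY6, a transcription factor of phosphate and senescence responses, was 3.62-fold lower. TMT1, which loads sugars into the vacuole, gave 440.4, 214.0 and 208.9 in the stele against at least 584.8 (3.54-fold lower, adjusted p = 4.7e-06). Its relative TMT2 had 310.0, 86.7 and 203.8 in the stele, where it was 1.79-fold over the mean of the 4 (adjusted p = 0.048) and 1.01-fold over the columella. The others were SCPL34 (3.41-fold lower), the synaptotagmin ATSYTF (2.92-fold), the sulfurtransferase STR18 (2.82-fold), the urease gene URE (2.71-fold) and the aldehyde dehydrogenase ALDH7B4 (2.16-fold).

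Of 19 regulators of the iron deficiency response on the list, 10 were tested, of which 2 were higher in the stele, 1 was lower and 7 did not pass, with a median of -0.17. With 15.9% higher and 11.2% lower among all tested probe sets, these counts are near the background, and the single genes are given for their values. IMA1, the peptide gene, gave 201.7, 269.5 and 259.1 in the stele and 9.51 to 74.4 on the other arrays, with no overlap (5.52-fold, adjusted p = 1.4e-06). Its nearest population was the endodermis at 51.5 ± 17.7 (SD, n = 3), 4.18-fold below the stele. The ubiquitin ligase BTSL2, which acts against the uptake regulators, was stele-depleted. It gave 97.7, 161.3 and 81.5 in the stele and from 208.2 to 599.0 elsewhere (3.01-fold lower, adjusted p = 7.6e-06). Its relative BTSL1 was not called against the mean of the 4 (adjusted p = 0.29), with 184.7 ± 66.5 (SD, n = 3) in the stele and 646.9 ± 76.6 (SD, n = 3) in the cortex.

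bHLH34, a factor that acts upstream of the regulatory cascade, was 1.58-fold higher than the mean of the 4 (adjusted p = 0.0071), and its stele mean of 227.1 ± 29.0 (SD, n = 3) lay beside 234.3 ± 34.9 in the endodermis (SD, n = 3). PYE, a regulator described from the stele of iron-deficient roots, gave 128.4, 113.4 and 85.6 in the stele and 69.0 to 179.6 elsewhere, and did not pass (log2 -0.10 ± 0.19 SE, adjusted p = 0.75). BHLH101, bHLH104, ILR3, bHLH115 and bHLH121 did not pass against the mean of the 4 either. Of the list of iron uptake, F6'H1, an enzyme of the coumarins that roots secrete, was 2.38-fold higher (adjusted p = 0.028) and lay under the cortex, at 253.1 ± 89.7 against 1084 ± 80.0 (SD, n = 3 each). COSY, which also makes coumarins, was 1.48-fold higher (adjusted p = 0.023), with 872.1 ± 15.4 in the stele beside 1330 ± 157 in the endodermis (SD, n = 3 each). The call of F6'H1 was lost without stele replicate 2 (adjusted p = 0.17) or 3 (adjusted p = 0.073), and that of COSY without any 1 stele array (adjusted p = 0.064 to 0.081). BGLU42, a glucosidase of the same pathway, did not pass (adjusted p = 0.17). The 19 genes of internal iron transport and storage and the 14 of stelar ion transport on the lists had no tested member here.

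Few known vascular genes could be read. Tested were 2 of 28 listed xylem genes, 1 of 24 phloem genes, 3 of 17 vascular regulators and 3 of 15 pericycle genes. Several of the vascular and pericycle genes were shared with the endodermis population. LBD16, a factor of lateral root initiation, gave 577.4, 637.9 and 507.6 in the stele and 560.6 ± 107 in the endodermis (SD, n = 3; 4.51-fold over the mean of the 4, adjusted p = 2.9e-05). SWEET11, a sucrose exporter of the phloem, gave 502.7 ± 157 in the stele beside 532.6 ± 124 in the endodermis (SD, n = 3 each; 3.95-fold over the mean of the 4, adjusted p = 0.00014). HCT, of monolignol synthesis, was 2.90-fold higher, with 3631 ± 154 in the stele and 5315 ± 10.1 in the endodermis (SD, n = 3 each).

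The xylan genes of the xylem list had their highest means in the columella. IRX15 gave 79.5, 45.7 and 252.4 in the stele and 218.0 ± 25.6 in the columella (SD, n = 3). It was 2.72-fold over the mean of the 4 (adjusted p = 0.0085), a call lost without stele replicate 3 (adjusted p = 0.14). GUT2 (IRX10) did not pass (adjusted p = 0.092), with 245.7 ± 100.0 in the stele and 489.5 ± 193 in the columella (SD, n = 3 each). LBD29, a partner of LBD16, was 2.45-fold higher with 61.3, 58.1 and 59.4 in the stele and 58.8 ± 49.3 in the endodermis (SD, n = 3; adjusted p = 0.68 between them). Its call against the mean of the 4 (adjusted p = 0.023) was lost without any 1 stele array (adjusted p = 0.074 to 0.084). CR4 (ACR4), a receptor kinase of lateral root founder cells, was lower (-1.56, adjusted p = 0.00032), with 4.40 to 6.62 in the stele. The brassinosteroid receptor BRL1, the cytokinin response regulator ARR15, and IAA20, IAA30, GH3.3 and WES1 (GH3.5) of the auxin list did not pass.

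Over all 19 lists, which include iron genes and markers of every population, the annotation named 49 of 272 loci and 44 were tested. Of these 44, 15 were higher, 7 lower and 22 not called, beside 15.9% and 11.2% of all tested, and 4 were enriched and 1 depleted, beside 2.08% and 0.863%. The 44 include the 4 named stele markers, all 4 of them higher and 3 enriched. The markers and all the lists were chosen with earlier results of these data known. The excess over the background is therefore partly set by that choice, and the counts over the 44 are no independent support for it. Markers of the other populations were measured in the stele arrays in the same way. CORTEX was at 12.9 to 38.7 in the stele, against 532.6 to 1409 in the cortex. The reporter that sorted the cortex bears the same name, so the high level there is no independent check of that label. The summed signal of the 3 tested endodermis markers was 826.9 to 1967.6 in the stele, 1422.9 to 1906.2 in the cortex and 9417 to 13407 in the endodermis, and 49.2 to 151.1 over the epidermis and the columella. SGN1, a kinase of Casparian strip formation, gave 1087, 463.9 and 384.3 in the stele, 2.69-fold over the mean of the 4 (adjusted p = 0.0023) and lower than in the endodermis (log2 -3.39). GSO1 (SGN3), the receptor of the same pathway, did not pass against the mean of the 4 (adjusted p = 0.12). JKD, a factor of ground tissue, was lower (-1.20, adjusted p = 0.024), with 41.3, 1.11 and 15.9 in the stele. This call was lost without stele replicate 2 (adjusted p = 0.27) or 3 (adjusted p = 0.076), and with a pseudocount of 1 (adjusted p = 0.075). The part of endodermis RNA in the stele values was not tested.

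The root cap genes did not move together. RCPG, a polygalacturonase of the root cap, was 12.8-fold lower in the stele, with 21.6, 96.7 and 72.3 against 7529 ± 532 in the columella (SD, n = 3). APL4 was 2.69-fold lower. PASPA3, an aspartic protease, was 3.88-fold higher, with 1434, 1874 and 2069 in the stele, and did not differ from the epidermis with lateral root cap by the test (adjusted p = 0.40). PASPA3 is known from the lateral root cap and from the xylem, where cells die as they mature. The root hair genes EXPA7 and EXPA18 and the hair patterning gene TRY did not pass. EXPA18 was at 314.7 ± 175 in the stele (SD, n = 3) and 340.3 ± 154 in the epidermis (SD, n = 4), and the summed signal of the 3 genes was 391.7 to 667.7 in the stele and 469.5 to 1132 in the epidermis. The part of epidermis RNA in the stele values was not tested. The quiescent center marker AGL42 did not pass, with 67.8 ± 2.95 in the stele and 237.8 ± 37.0 in the endodermis with quiescent center (SD, n = 3 each). Of 3 genes of stress and wounding, STZ (ZAT10), a zinc finger factor induced by stress, was lower (-0.89, adjusted p = 0.0069, and 0.092 without stele replicate 2). The heat shock genes HSP17.6C and ATHSP22.0 did not pass.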

How the data were processed

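RNA of 16 sorted samples was measured on Affymetrix arrays, 1 hybridization per sample. The deposited intensity values are linear MAS5 signals calculated by the authors, per the submitters' processing notes, with the MAS5 version not given in the sources used here. Signals entered as log2(signal + 10.21), the 20th percentile, so folds understate changes of low signals. Of 22810 probe sets (64 controls left out), 16221 had at least 3 arrays at 38.05, the 40th percentile, or above. Population means were estimated from the 16 arrays together (limma 3.58.1, R 4.3.3, eBayes with a trend, 11 residual degrees of freedom). The 2-sided p-values had Benjamini-Hochberg adjustment over all tested probe sets at 0.05. Signal above background and the number of arrays limit the precision.

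The platform annotation left 8794 probe sets without a gene, gave several to 503 and 1 to 13513, and 13436 of the 13513 matched RefSeq TAIR10.1. Named were the 15 largest enriched and depleted genes without overlap, the 8 largest with a symbol, the markers and all tested list members, with the probe set of highest mean per gene, 81 in all. The remaining genes with a symbol and the families were named after their values were seen. IMA1, BTSL1, BTSL2, COSY, PASPA3, RCPG, SGN1 and HSP17.6C are names from general knowledge for annotated loci. The stele, its markers and the lists were chosen with earlier results of these data known.

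Deviations of same-numbered arrays of the stele and another population correlated at r of -0.26 to 0.23 over 12 pairs (median 0.034, 4 above 0.1). Over the 72 pairs of arrays with different numbers, from all populations, r was -0.37 to 0.36 (median 0.0027, 19 above 0.1). So few pairs cannot exclude a shared deviation. On simulated data of the same design over 16221 probe sets, 50 were changed each way at each fold. Of these, 42% of 2-fold higher and 48% of 2-fold lower stele levels were found, and 96% and 100% of 4-fold ones. For the enriched and depleted sets these were 18% and 14%, then 84% and 76%. In the data 27.1% of tested probe sets were called higher or lower in the stele. With far fewer changed in the simulation, its adjustment was stricter, so these shares are not detection rates for the data. Python 3.11.15 with matplotlib 3.10.9 drew the figures.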

Additional observations from a re-analysis of the deposited data

Results flagged for a closer look

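In 8 of the 81 named genes, 1 of the 4 epidermis arrays lay far from the other 3 by Dixon's ratio, the gap to the nearest array over the whole range, at its 95% critical value, where chance alone gives about 1 in 20. Groups of 3 arrays, the stele among them, were not tested this way. In 7 genes the array was epidermis replicate 4. It gave 126.6 against 14.4 to 17.56 for AT3G10080 (ratio 0.93), 99.6 against 20.4 to 27.3 for AT2G28410 (0.841), 24.5 against 1.33 to 3.09 for SBTI1.1 (0.871) and 251.2 against 38.6 to 52.3 for SAH7 (0.853). It also gave 293.1 against 535.8 to 575.2 for ENGase85A (0.894), 110.7 against 43.8 to 49.8 for GSO1 (0.87) and 26.4 against 6.56 to 8.68 for ATHSP22.0 (0.847). For SGN1, epidermis replicate 3 gave 0.962 against 17.1 to 18.5 (0.947).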

How the results depend on the processing

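Over 26 alternatives, 53 of the 59 called named genes kept their call and direction. IRX15, LBD29, F6'H1, COSY, JKD and STZ lost theirs in at least 1. Leaving out each array in turn gave 1669 to 2905 higher, 1191 to 2059 lower, 236 to 376 enriched and 78 to 164 depleted probe sets. The lowest values came without stele replicate 3, and 225 of those 236 and 75 of those 78 were in the sets of 338 and 140. Array weights gave 3550 higher, 2463 lower, 470 enriched and 239 depleted probe sets. Quantile normalization gave 2420, 2103, 346 and 193, and 122 of those 193 were in the set of 140. With the 40th percentile as pseudocount there were 423 enriched and 112 depleted. The replicate number as a block gave 2771 higher, 1984 lower, 371 enriched and 155 depleted. Only the epidermis has a replicate 4, so the block also takes that array out of the differences. TRY, for example, was at -0.073 both with the block and without epidermis replicate 4. Leaving out epidermis replicate 4 and stele replicate 2 together, chosen after seeing the data, gave 2300 higher, 1554 lower, 326 enriched and 152 depleted. Signs that turned belonged to genes not called. TRY moved from -0.026 to 0.0089 with quantile normalization, 0.037 with a pseudocount of 1 and -0.289 to 0.119 without single arrays or the pair. HSP17.6C moved from 0.066 to -0.055 with quantile normalization, -0.0186 with the 40th percentile as pseudocount and -0.153 to 0.328 without single arrays. IAA20 moved from -0.16 to 0.096 with a pseudocount of 1. Without single arrays or the pair, bHLH115 ranged from -0.088 to 0.245 (-0.056 without the pair) and PYE from -0.218 to 0.048. The causes were not tested.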
